A study of Mus musculus with 27 samples.

Results

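Amph, Nnt, Mid1, mt-Nd3, Wdfy1, D16Ertd472e and Adamtsl5 are 7 of the 22524 genes counted in this series, and they set organoids from the germ-free (GF) facility apart from organoids of both specific pathogen-free (SPF) facilities. They were chosen by their counts in these same 18 organoid libraries, as genes that separate GF from SPF cultures, so every GF-to-SPF difference of these genes below is a description and carries no test. For each, the 6 GF values lie wholly above or wholly below the 12 SPF values. That also holds for Snapc1, Ivns1abp and Chst4, which were not chosen, so this trait alone did not set the choice. Jejunal organoids, epithelial cultures grown from crypts, came from 3 wild-type mice of SPF facility SR (cultures Z908 to Z910), 3 of SPF facility SE (Z911 to Z913) and 3 germ-free mice (Z917 to Z919), and every culture was sequenced under both treatment labels, untreated and TNF at 5 ng/ml for 8 h. The mice of a group were cohoused male littermates of 8 to 12 weeks, described as C57BL/6J in 1 place of the study and as C57BL/6 in another, and the organoids were taken at passage 5 to 8. The m-ICc12 line (immortalised mouse small intestinal epithelial cells, 3 cultures, each with both labels) and untreated C57BL/6 mouse embryonic fibroblasts (MEFs, 3 cultures) stood beside them as reference cells. Since each organoid group is 1 litter from 1 facility, germ-free status, litter, facility and mouse background cannot be told apart in these data.

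The genes have unlike jobs. Nnt makes the transhydrogenase of the inner mitochondrial membrane, which uses the proton gradient to regenerate NADPH for the glutathione and thioredoxin systems, and mt-Nd3 is a mitochondrially encoded subunit of respiratory complex I. Amphiphysin (Amph) is a BAR domain protein of clathrin-mediated endocytosis best known from neurons, Wdfy1 is a FYVE domain protein of early endosomes that links TRIF to TLR3 and TLR4, Mid1 is a microtubule-bound E3 ubiquitin ligase that controls protein phosphatase 2A, Adamtsl5 is a secreted ADAMTS-like matrix protein, and D16Ertd472e is the mouse homologue of human C21orf91. As background, the substrains C57BL/6J and C57BL/6N are known to differ in Nnt, where C57BL/6J mice carry a multi-exon deletion, and in the mitochondrial genome, and Mid1 spans the boundary of the mouse pseudoautosomal region on the X chromosome.

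Read totals were 6071103 to 43843615 per library with a median of 30339856, and 11440041 to 35283218 among the organoids. The floor of 3 counts corresponded to 0.0655 to 0.522 CPM (counts scaled to the TMM-adjusted library size); it covers counting error only. All 10 intestinal epithelial markers were detected in the organoids, at a sum of 2831 to 3547 CPM, against 522 to 762 CPM in m-ICc12 and 3.61 to 6.80 CPM in MEFs, and 0 of the 10 passed between GF and SPF. The 4 Y-linked genes examined (Ddx3y, Kdm5d, Eif2s3y and Uty) were detected in every organoid library, at a sum of 120 to 198 CPM in GF and 162 to 228 CPM in SPF, and 0 of 4 passed between them. Only 4 of 12315 genes had an adjusted p under 0.05 between GF and SPF by edgeR, and all 4 are members. Any list of other genes, here and below, therefore had to give 0 passing, and nothing is read from each such 0. All 5 TNF targets examined (Nfkbia, Nfkb2, Tnfaip3, Relb and C3) were lower in the organoid libraries labelled TNF than in those labelled untreated, with a median log2 fold change of -1.79 (edgeR, all 5 with adjusted p under 0.05), which goes against the treatment labels, so directions of TNF below are by label only.

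The mitochondrial gene had the widest gap of the 7 between its GF and SPF ranges over all 18 libraries (4.96 on the log2 CPM scale), while Amph had the larger difference between medians (7.21 against -5.96, GF minus SPF). mt-Nd3 (ENSMUSG00000064360, chromosome M, 9459 to 9806, plus strand, GRCm38) had no count in any of the 6 GF libraries. In the SPF libraries it had 73 to 186 counts with a median of 108. In CPM, the SR cultures Z908, Z909 and Z910 read 6.94, 3.36 and 5.87 when labelled untreated and 2.08, 3.34 and 4.2 when labelled TNF, and the SE cultures Z911, Z912 and Z913 read 4.90, 2.85 and 4.01 and then 11.4, 4.26 and 4.39. Every SPF library lay above every GF library. The mean SPF level of 4.8 ± 2.45 CPM (SD, n = 12 libraries of 6 cultures) was at least 44.2-fold above the GF floor of 3 counts per library.

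The GRCm38 genome holds a near-identical nuclear copy of this gene, the pseudogene Gm28438, at chr1:24612775-24613119 on the minus strand. Over the 345 bases that both share, the reference sequences differ at 1 base, T3C (mt-Nd3 first, positions counted from 1 at the first base of the gene), which is position 9461 of chromosome M and the third base of the first codon. The first 60 bases of both are shown because a read carries evidence for mt-Nd3 rather than its copy at this base alone or beyond the ends of the copy; the capital marks the differing base.
mt-Nd3: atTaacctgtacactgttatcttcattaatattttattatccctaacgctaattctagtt
Gm28438: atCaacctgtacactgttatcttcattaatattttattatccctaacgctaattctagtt
Of the 249 windows of 100 bases inside mt-Nd3, 243 (97.6%) occur in a nuclear transcript of the annotation, 3 of the other 6 hold the base at position 3, and the remaining 3 reach past the end of the copy. Counts of mt-Nd3 are therefore uncertain as a measure of its RNA, and which base the GF, SPF, m-ICc12 or MEF cultures carry at this position was not tested, since only counts were analysed.

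The other 12 protein genes of the mitochondrial genome divided by how much sequence they share with nuclear copies. mt-Co2, mt-Atp6, mt-Co3 and mt-Nd4l, with 98.5% to 99.9% of their windows shared, had no more than 105 counts in any of the 27 libraries. mt-Nd1, mt-Nd2, mt-Nd5, mt-Cytb, mt-Co1 and mt-Nd4, with 0 to 60.8% shared, ran from 6998 to 758505 counts. mt-Atp8 did not follow this division: it had 0% shared and no count in any library, and it overlaps mt-Atp6. mt-Nd6, with 0% shared, had 238 to 1945 counts. Of the sharing genes, mt-Nd4l was also at 0 in all 6 GF libraries, against 0 to 75 counts with a median of 8 in the 12 SPF libraries, so its ranges overlapped, and mt-Co3 had a median of 0 and a highest count of 25 in GF against a median of 21 and a highest count of 105 in SPF. No gene of this list passed between GF and SPF by edgeR's quasi-likelihood test at an adjusted p under 0.05 (0 of 9 tested, median log2 fold change -0.50 against -0.01 for all genes). In the GF libraries, which lack mt-Nd3 counts, mt-Nd1 had 95403 to 161146 counts, or at least 3193 CPM per kilobase. None of the 5 copies of these genes looked for (Gm28438, Gm28437, Gm10222, Gm28661 and Gm10925) is among the counted genes.

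**Figure D1:**
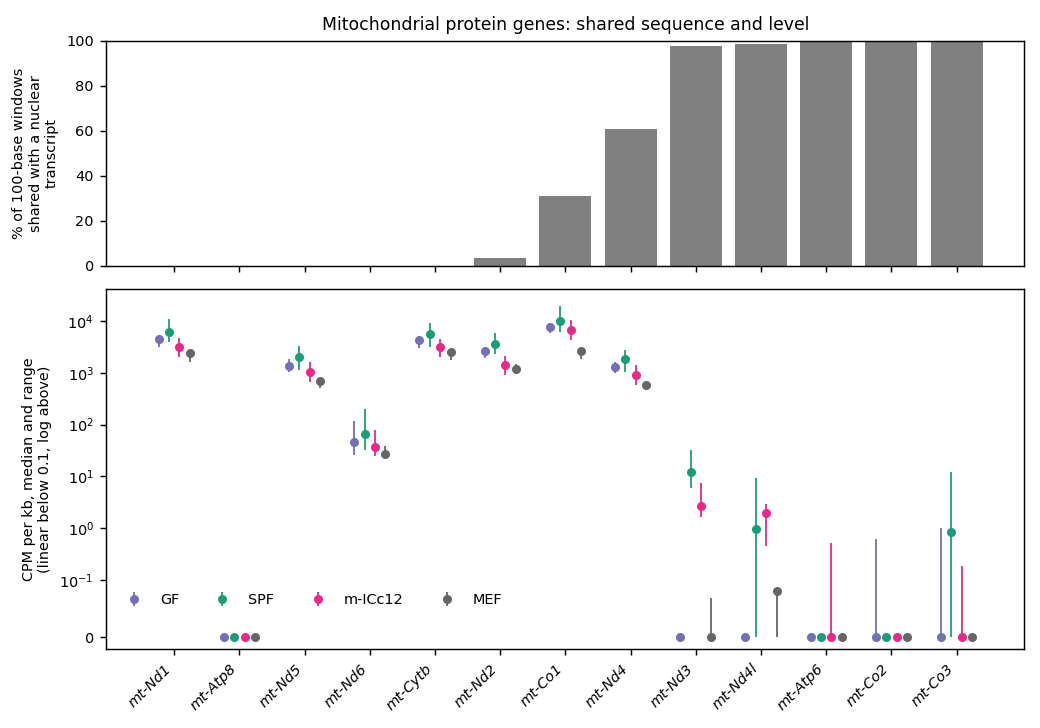
Upper bars give the percentage of 100-base windows of each of the 13 mitochondrial protein genes found in a nuclear transcript of GENCODE release M21; lower points give the median and lines the range of CPM per kilobase over 6 GF, 12 SPF, 6 m-ICc12 and 3 MEF libraries, on an axis that is linear below 0.1 and logarithmic above. The genes with 97.6% or more shared windows sit at the bottom, with mt-Nd3 at 0 in every GF library, and mt-Atp8 is at 0 with none shared.

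Nnt (ENSMUSG00000025453, chromosome 13, 119335448 to 119408997, minus strand) was higher in GF organoids. The GF cultures Z917, Z918 and Z919 had 186, 258 and 258 CPM when labelled untreated and 207, 245 and 273 CPM when labelled TNF, while the 12 SPF libraries had 74.0 to 121 CPM with a median of 94.2. The ranges did not overlap under either label. The GF mean of 238 ± 34 CPM (SD, n = 6 libraries of 3 cultures) was 2.38 times the SPF mean of 99.9 ± 15.4 CPM (n = 12). The difference between the groups was thus a little over a doubling, the smallest of the upward members on the ratio scale, and it rested on 4373 to 9691 counts per GF library. A second Nnt gene model (ENSMUSG00000116207) covers nearly the same span on the same strand and is not among the counted genes, so the sharing of reads between both models is uncertain. The 18 other genes fixed for mitochondrial NADPH, glutathione and thioredoxin, among them Gsr, Txnrd2, Prdx3, Sod2, Idh2 and Me3, were all tested between GF and SPF, and 0 passed an adjusted p under 0.05 (median log2 fold change -0.07). Their summed level was 2105 to 2468 CPM in GF and 2167 to 2421 CPM in SPF organoids.

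Amph (ENSMUSG00000021314, chromosome 13, 18948205 to 19150921, plus strand) lies 100.5 Mb from Nnt on the same chromosome. The libraries of Z917, Z918 and Z919 had 270, 387 and 395 counts under the untreated label and 273, 496 and 577 under the TNF label, or 8.57 to 17.5 CPM over all 6. Of the 6 SPF libraries labelled untreated, 5 had no count and that of Z909 had 2. The SPF libraries labelled TNF had 38, 0 and 40 counts in Z908, Z909 and Z910 and 2, 7 and 30 counts in Z911, Z912 and Z913. SPF organoids were thus at or under the floor under the untreated label, while 4 of the 6 TNF-labelled libraries were above it, at up to 1.6 CPM. Under the untreated label the GF mean of 13 ± 4.48 CPM (n = 3) was at least 108-fold above the SPF floor, and under the TNF label the GF mean of 15 ± 1.82 CPM (n = 3) was 21.4 times the SPF mean of 0.703 ± 0.652 CPM (n = 6). Amph had at most 1 count in any m-ICc12 library and none in MEFs.

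A promoter window of 300 bases around the RefSeq start of Amph is shown because the gene had no count in most SPF libraries under the untreated label and 270 to 577 counts in GF libraries; the bases lie at chr13:18948101-18948400 (GRCm38.p6, plus strand), with CG dinucleotides in capitals.
Amph: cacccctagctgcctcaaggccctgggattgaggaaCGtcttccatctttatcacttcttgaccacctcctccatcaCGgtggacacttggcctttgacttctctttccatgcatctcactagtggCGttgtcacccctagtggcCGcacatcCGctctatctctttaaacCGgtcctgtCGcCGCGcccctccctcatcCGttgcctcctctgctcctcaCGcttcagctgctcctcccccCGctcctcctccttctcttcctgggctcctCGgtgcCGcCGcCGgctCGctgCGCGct
This window holds 19 CG dinucleotides, and 28.3% of 32544 promoter windows of the same length hold as many or more. The letters TATAAA were not found on either strand in it, whereas 13.6% of the promoter windows hold them.

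Among 22 genes fixed as endocytic partners of amphiphysin (other BAR proteins, dynamins, synaptojanin, clathrin and AP-2 chains), 20 were tested between GF and SPF and 0 passed (median log2 fold change -0.02). Single values ran from -2.74 for Snap91 to 1.28 for Bin2. The BAR protein Bin1 had -1.02, with a median of 6.51 CPM in GF and 12.6 CPM in SPF and overlapping ranges. The sums of the 22 genes overlapped, at 2362 to 2624 CPM in GF and 2317 to 2570 CPM in SPF. Since Amph is best known from neurons, the markers of other cell types were read beside it. The 7 neuron and glia markers summed to 2.5 to 6.08 CPM in GF and 1.08 to 7.91 CPM in SPF libraries, with 3 of 7 tested and 0 passing. Syt1 and Sox10 were at 0 in every GF library, and Sox10 was at 0 in every SPF library as well. The 5 enteroendocrine markers summed to 177 to 233 CPM (median 185) in GF and 98.6 to 208 CPM (median 157) in SPF libraries, with 0 of 5 passing. Their log2 fold changes ran from -0.27 for Syp to 0.42 for Chgb. Chgb had 99.2 to 134 CPM in GF and 48.2 to 102 CPM in SPF, so its ranges overlapped narrowly. Fibroblast markers summed to 5.83 to 20.7 CPM in GF and 6.72 to 14.9 CPM in SPF, against 3303 to 4360 CPM in MEFs. Of the 3 tested 0 passed, with log2 fold changes (GF minus SPF) of 0.69 for Col1a1, 1.52 for Col1a2 and 0.42 for Pdgfrb. Dcn and Thy1 were at 0 in every GF library. In MEFs Thy1 was also at 0 and Dcn had a median of 0 CPM, so nothing is read from their absence. Smooth muscle markers summed to at most 2.35 CPM, immune markers to at most 9.63 CPM, nearly all of it Itgam, and endothelial markers to at most 0.597 CPM in organoids, and 0 of these passed where tested. In bulk libraries fewer cells of a type and less RNA per cell cannot be told apart.

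Wdfy1 (ENSMUSG00000073643, chromosome 1, 79702262 to 79776143, minus strand) read 50.2, 56.3 and 54.9 CPM in Z917, Z918 and Z919 under the untreated label and 60.4, 65.2 and 54.9 CPM under the TNF label. The 12 SPF libraries ran from 10.6 to 29.2 CPM with a median of 15.3. The GF mean of 57 ± 5.17 CPM was 3.44 times the SPF mean of 16.6 ± 5.62 CPM, and the ranges did not overlap. The SDs of both groups were close in CPM, while the SPF libraries, which pool SR and SE, varied more than 2-fold among themselves. Of its relatives and of the receptors and adaptor it serves (Wdfy2, Wdfy3, Wdfy4, Tlr3, Tlr4 and Ticam1), 4 were tested between GF and SPF, 0 passed, and the median log2 fold change was -0.08; Wdfy4 was at 0 in every GF library.

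Mid1 (ENSMUSG00000035299, chromosome X, 169685199 to 170005736, plus strand) read 75.4, 60.6 and 82.6 CPM in the untreated-labelled and 65.8, 57.9 and 103 CPM in the TNF-labelled GF libraries. In SPF organoids its level spread over a 10-fold range, from 1.47 CPM in Z909 to 14.7 CPM in Z911, both labelled untreated, with a median of 6.94 CPM. Every GF library lay above every SPF library, and the GF mean of 74.2 ± 16.8 CPM was 10.4 times the SPF mean of 7.10 ± 4.13 CPM. 4933400A11Rik, a protein gene on the opposite strand, lies within Mid1 and was counted as well; whether strand was used in counting is not given in the sources used here. The partners fixed for Mid1 (Mid2, Igbp1, Ppp2ca, Ppp2cb and Mid1ip1) were all tested, and 0 of 5 passed (median log2 fold change -0.13).

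D16Ertd472e (ENSMUSG00000022864, chromosome 16, 78540338 to 78576708, minus strand) had 95, 114 and 28 counts in the untreated-labelled and 8, 76 and 77 counts in the TNF-labelled libraries of Z917, Z918 and Z919. In SPF organoids 9 of 12 libraries had no count and the other 3 had 1 count each. Even the lowest GF library, that of Z917 labelled TNF at 0.378 CPM, lay above every SPF library. Over all libraries the GF mean of 2.17 ± 1.23 CPM (n = 6) was at least 17.4-fold above the SPF floor of 3 counts per library. The promoter window of this gene (chr16:78576639-78576938, GRCm38.p6, minus strand) is shown for the same reason as that of Amph, again with CG in capitals.
D16Ertd472e: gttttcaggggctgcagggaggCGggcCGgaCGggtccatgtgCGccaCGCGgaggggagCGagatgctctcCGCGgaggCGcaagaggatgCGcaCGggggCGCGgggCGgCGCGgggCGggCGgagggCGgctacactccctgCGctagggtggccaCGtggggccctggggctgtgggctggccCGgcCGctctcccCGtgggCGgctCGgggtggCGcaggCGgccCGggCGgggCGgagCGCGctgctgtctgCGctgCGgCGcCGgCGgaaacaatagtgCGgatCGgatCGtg
It holds 42 CG dinucleotides, more than Amph, and 3.06% of promoter windows hold as many or more; TATAAA was not found on either strand.

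Adamtsl5 (ENSMUSG00000043822, chromosome 10, 80339110 to 80348412, minus strand) was lower in GF organoids and lay closest to the edge of the selection. The GF libraries read 14.8, 16.9 and 13.4 CPM under the untreated label and 18.1, 19.8 and 11.7 CPM under the TNF label. The SPF libraries ran from 21 to 47.6 CPM with a median of 29.0. The highest GF library, Z918 labelled TNF, and the lowest SPF library, Z910 labelled untreated, were only 0.08 apart on the log2 CPM scale. The SPF mean of 32.3 ± 9.64 CPM was 2.05 times the GF mean of 15.8 ± 3.03 CPM. Of its relatives Adamtsl1 to Adamtsl4, Thsd4 and Papln and of the fibrillins Fbn1 and Fbn2, 3 were tested and 0 passed (median log2 fold change 0.01), and Adamtsl1 and Adamtsl2 had no count in any organoid library.

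**Figure D2:**
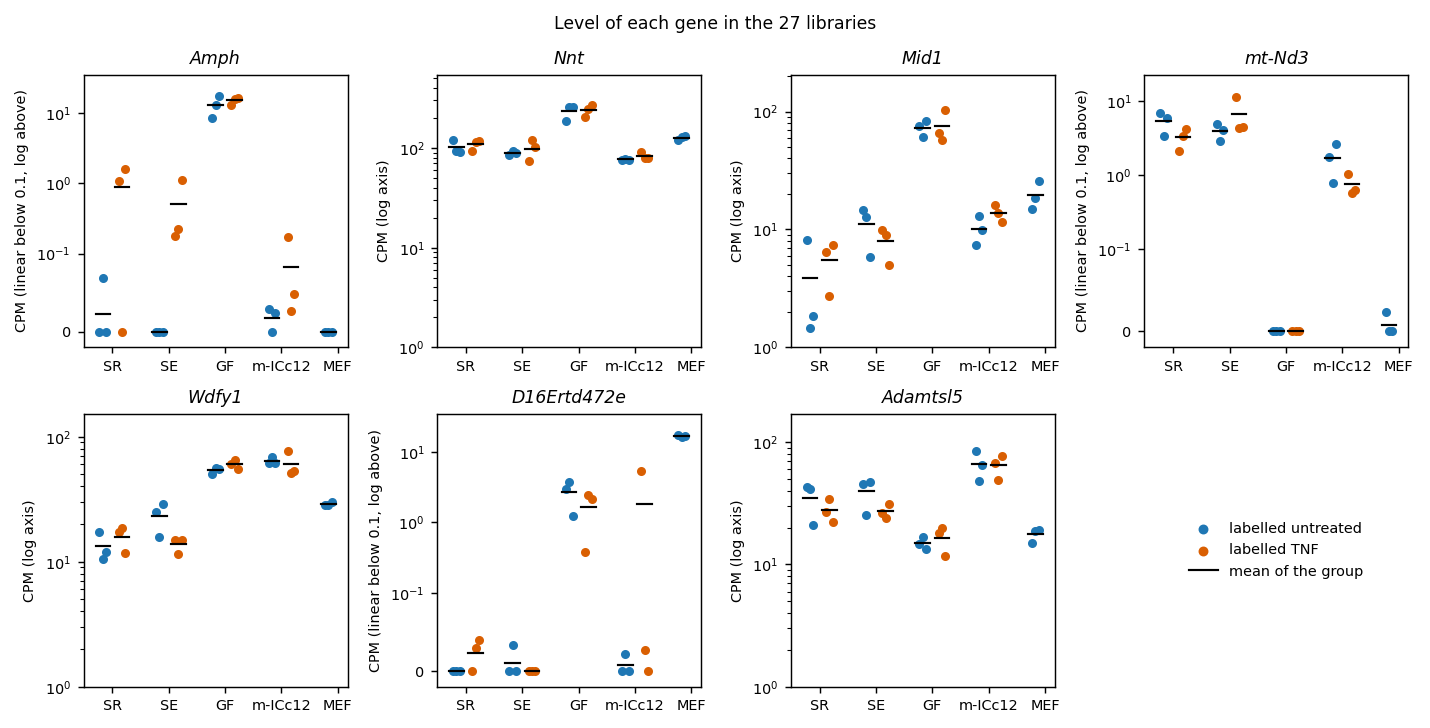
Each point is 1 of the 27 libraries, blue where labelled untreated and orange where labelled TNF, and bars are group means; Amph, mt-Nd3 and D16Ertd472e have CPM axes that are linear below 0.1 and logarithmic above, the others logarithmic axes. The GF points stand above all SR and SE points for Amph, Nnt, Mid1, Wdfy1 and D16Ertd472e and under them for mt-Nd3 and Adamtsl5, while m-ICc12 and MEFs follow no single side.

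Among the 12280 genes that reach 10 counts in 50% or more of the GF or SPF libraries, 10 had ranges that did not overlap between GF and SPF (0.0814%), and these include the 7 described here, as the choice fixed. The gaps between the ranges on the log2 CPM scale were 4.96 for mt-Nd3, 2.37 for Amph, 2.04 for D16Ertd472e, 1.97 for Mid1, 0.78 for Wdfy1 and 0.61 for Nnt. The other 3 genes were Snapc1, a subunit of the complex that activates small nuclear RNA promoters, with a gap of 0.39 and 7.67 to 11.5 CPM in GF against 15.1 to 26.1 CPM in SPF, Ivns1abp with a gap of 0.014 and Chst4 with a gap of 0.0037. Just outside stood Mgat5, whose ranges overlapped (a gap of -0.0027). Of the 10 genes 6 were higher in GF and 4 lower. On CPM without TMM the count was again 10, with 7 higher and 3 lower in GF, and all 7 genes described here were again among them. In the edgeR fit of GF against SPF libraries labelled untreated, 4 of 12315 genes (0.0325%) had an adjusted p under 0.05, and all 4 are among these 7 genes; since the genes were chosen on this contrast, nothing is read from that count.

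**Figure D3:**
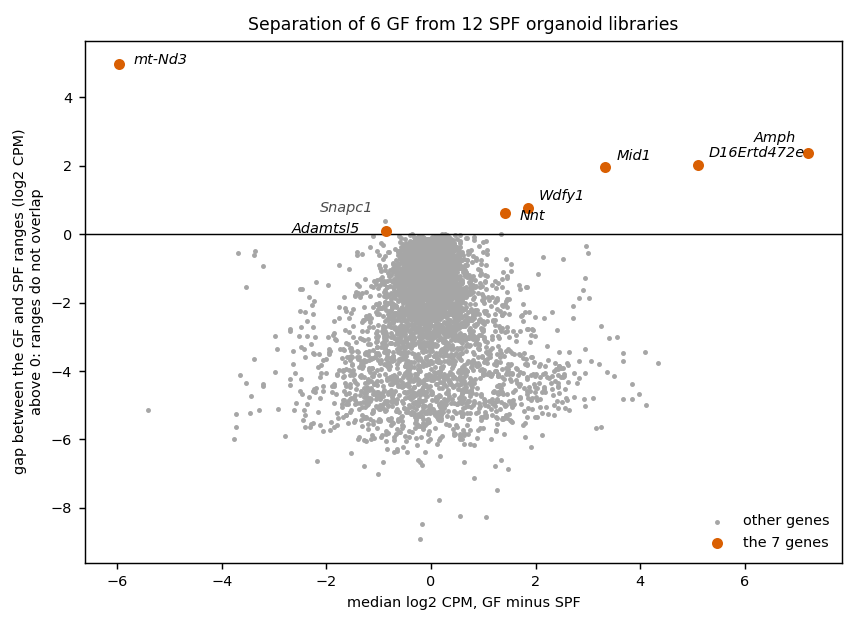
Each point is 1 of 12280 genes, with the median log2 CPM difference of GF minus SPF on the horizontal axis and the gap between the GF and SPF ranges on the vertical axis, where values above 0 mean no overlap. The 7 genes (orange) stand above 0, from 0.08 for Adamtsl5 to 4.96 for mt-Nd3, and nearly all other genes (grey) lie under it.

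The 6 nuclear genes lie on 5 chromosomes, so the neighbourhood of each was read for a regional difference. Within 500 kb of them 105 other genes were counted and 65 could be tested between GF and SPF, and 0 passed an adjusted p under 0.05 and 0 had ranges that did not overlap. The 0 passing was fixed, since all genes called are members. Beyond the members only Snapc1, Ivns1abp and Chst4 had ranges apart, so nothing is read from either 0. The median log2 fold change of these neighbours was -0.10, against -0.01 for all genes. Amph had 3 tested neighbours with log2 fold changes of 0.16 to 0.40, Mid1 2 with -1.03 and -0.15 and D16Ertd472e 2 with -0.01 and 0.20. Nnt had 7 with a median of 0.05 (-3.375 to 0.19), Wdfy1 5 with a median of 0.01 (-0.16 to 1.09) and Adamtsl5 46 with a median of -0.14 (-6.76 to 1.11). The lowest beside Nnt was 3110070M22Rik, with a median of 0.111 CPM in GF and 0.848 CPM in SPF and overlapping ranges. The widest value, -6.76 for Onecut3 near Adamtsl5, belongs to a gene with a median of 0 CPM in GF and 0.0390 CPM in SPF and did not pass. Mrpl44 overlaps the first bases of Wdfy1 on the opposite strand and was counted as a gene of its own.

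**Figure D4:**
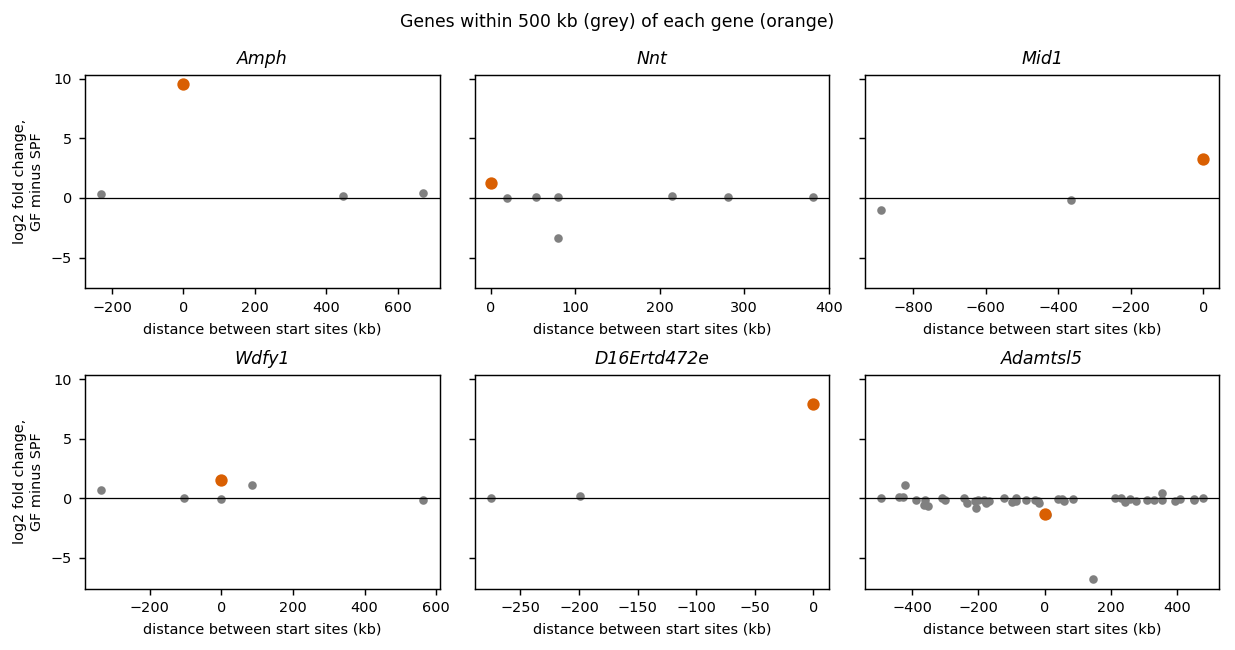
Each panel gives the edgeR log2 fold change (GF minus SPF, libraries labelled untreated) of 1 nuclear gene (orange) and of the tested genes within 500 kb (grey) against the distance between start sites in kb. The 65 grey points did not pass the test, and beside Amph, Mid1 and D16Ertd472e they stay within -1.03 to 0.40. They run from -3.375 to 0.19 beside Nnt, from -0.16 to 1.09 beside Wdfy1 and from -6.76 to 1.11 beside Adamtsl5.

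The neighbours in level over the 18 organoid libraries were found by Pearson's correlation of log2 CPM among 12273 other genes, and since each member was chosen to separate GF from SPF these values carry that split and are given as a description. The most alike genes were Hipk3 for Amph (r = 0.79), Unc93a2 for Nnt (r = 0.85) and D16Ertd472e (r = 0.84), Dok1 for Mid1 (r = 0.83), Snapc1 for mt-Nd3 (r = 0.91), Sema3e for Wdfy1 (r = 0.79) and Micall2 for Adamtsl5 (r = 0.84). Snapc1 was also the most opposite gene to Mid1 (r = -0.85), Wdfy1 (r = -0.89) and D16Ertd472e (r = -0.88).

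Between the SPF facilities these genes were compared as SE minus SR over the libraries labelled untreated (3 against 3). The members were chosen on values that include these libraries, all of which had to lie on 1 side of GF, so the values are a description and nothing is read from the counts of calls. Of the 5 members with enough counts, 0 passed edgeR's adjusted p under 0.05, as for all 12219 genes (0 called, 0%); at an unadjusted p under 0.05 there were 2 members and 486 genes, and DESeq2 called 0 members and 8 genes. Mid1 had 8.21, 1.47 and 1.86 CPM in SR and 14.7, 12.8 and 5.87 CPM in SE, a log2 fold change of 1.53 ± 0.69 (standard error of the fit). Wdfy1 had 17.4, 10.6 and 12 CPM in SR and 25.0, 15.7 and 29.2 CPM in SE, a log2 fold change of 0.80 ± 0.35, and it turned to -0.20 in the libraries labelled TNF. Both are the members at an unadjusted p under 0.05 (0.042 and 0.037 by edgeR, adjusted p of 1 for both), and for both the ranges of SR and SE overlapped. Nnt, Adamtsl5 and mt-Nd3 had log2 fold changes of -0.19, 0.18 and -0.46. Amph and D16Ertd472e were at or under the floor in both facilities under the untreated label.

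The libraries labelled TNF were compared with those labelled untreated over 9 organoid cultures. Of 6 members tested, 0 passed edgeR's adjusted p under 0.05 and 0 had an unadjusted p under 0.05, with DESeq2 also at 0, against 168 of 12104 genes called (1.39%). Log2 fold changes of the members ran from -0.33 for Adamtsl5 to 0.33 for Amph. This fit pools GF and SPF cultures and leaves out the pairing by culture. The members were chosen to separate GF from SPF, which widens their spread within a label, so a 0 was likely. With the culture as a block, 0 members passed as well, against 397 genes called. For Amph the groups pooled here differ so much that the fold change depended on the fit: it was 0.33 ± 1.17 (adjusted p 0.98), 2.03 with the culture as a block (adjusted p 0.13), and 3.66 in a fit of all 27 libraries (adjusted p 0.011), higher by the TNF label in each of these fits. Within cultures Amph was higher in the library labelled TNF in 5 of 6 SPF cultures, with a median difference of 3.07 on the log2 CPM scale and a lowest of -0.996 in Z909, and in 2 of 3 GF cultures, with a median of 0.30. The difference of the TNF effect between GF and SPF was fitted as an interaction. It cannot be read for mt-Nd3, with 0 counts in all GF libraries, or for D16Ertd472e, with at most 1 count in each SPF library. Of the other 5 members 0 passed (0 of 12640 genes, 0%; 1 member and 323 genes at an unadjusted p under 0.05; DESeq2 called 0 members and 1 gene). That 1 member was Amph, itself at or under the floor in SPF libraries labelled untreated, with a log2 difference of -5.16 ± 1.36 and an adjusted p of 1 by edgeR. In m-ICc12 cells 5 members were tested and 0 passed, 0 of them at an unadjusted p under 0.05 and 0 by DESeq2, against 13 of 11861 genes called (0.11%). In 3 of 3 m-ICc12 cultures the library labelled TNF was higher for Mid1 and Nnt, with median log2 CPM differences of 0.22 and 0.06. It was lower in 3 of 3 for mt-Nd3, with a median of -0.69. The share of all genes with 1 sign in 3 of 3 cultures was not counted, so nothing is read from these signs. None of these 3 genes passed. Amph had no more than 1 count in each m-ICc12 library, so its differences are not read.

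**Figure D5:**
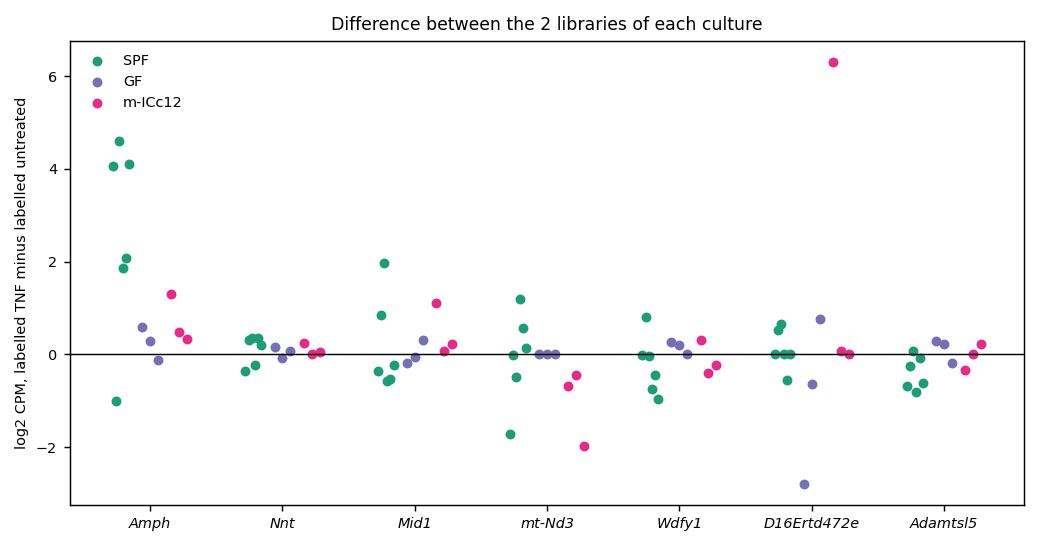
Each point is 1 culture, as log2 CPM of its library labelled TNF minus that of its library labelled untreated, for 6 SPF, 3 GF and 3 m-ICc12 cultures. Every point lies within 2 of 0, apart from Amph in SPF cultures (-0.996 to 4.60, median 3.07 over 6) and D16Ertd472e in 1 GF culture at -2.79 and 1 m-ICc12 culture at 6.31.

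The reference cells do not take the side of GF or of SPF organoids as a whole. Because the organoid libraries chose the genes, their levels in m-ICc12 and MEFs are set beside the organoids without a test, under the untreated label. For Nnt m-ICc12 cells read 75.9, 78.5 and 76.0 CPM and MEFs 119, 128 and 131 CPM, both under the lowest GF library (186 CPM), and the MEF range overlapped the SR range. For Wdfy1 m-ICc12 cells read 61.6, 68.7 and 61.8 CPM, above all 3 GF libraries, and MEFs 28.3, 28.2 and 29.8 CPM, overlapping SE. For mt-Nd3 m-ICc12 cells had 59, 36 and 110 counts, while MEFs had 1, 0 and 0, at or under the floor like GF organoids. D16Ertd472e was highest in MEFs, with 733, 642 and 447 counts or 16.1 to 17.4 CPM, 6.28 times the GF mean, and had 0, 1 and 0 counts in m-ICc12. Mid1 in m-ICc12 (7.42 to 13.1 CPM) overlapped SE and SR, and in MEFs (14.8 to 25.7 CPM) it lay above SE and under GF. Adamtsl5 in MEFs (15.1 to 19.1 CPM) overlapped GF, and in m-ICc12 (48.4 to 85.1 CPM) it lay above every SPF library.

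m-ICc12 and MEFs were compared with each other by test over the libraries labelled untreated, since neither took part in the choice. Of the 6 members with enough counts all 6 passed edgeR's adjusted p under 0.05, in a comparison in which 7614 of 12830 genes (59.3%) did. D16Ertd472e was at least 225-fold lower in m-ICc12 than in MEFs (adjusted p 1.5e-08 by edgeR), mt-Nd3 at least 19.7-fold higher (adjusted p 0.00074), Adamtsl5 3.74 times higher (log2 fold change 1.86 ± 0.22, adjusted p 9e-06) and Wdfy1 2.22 times higher (1.11 ± 0.15, adjusted p 4.9e-05). Nnt was lower (-0.76 ± 0.13, adjusted p 0.00026) and so was Mid1 (-1.0 ± 0.31, adjusted p 0.013). With the m-ICc12 libraries labelled TNF in place of those labelled untreated, the D16Ertd472e log2 fold change went from -10.57 to -3.75 (edgeR, adjusted p 0.038). Library M1 labelled TNF had 31 counts of it. The Mid1 call was lost without MEF culture R3, where the log2 fold change was -0.74 and the adjusted p 0.067, and in a fit of all 27 libraries (adjusted p 0.15), and edgeR's adjusted p ran from 0.006 to 0.15 over the alternatives. Amph had no more than 1 count in each of these libraries and could not be compared.

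One library stood apart for D16Ertd472e: M1 of m-ICc12 labelled TNF had 31 counts (5.39 CPM), while the other 5 m-ICc12 libraries had 0 or 1. It is the shallowest library, with 6071103 counts. Its fibroblast markers summed to 16.4 CPM against 1.58 to 3.59 CPM in the other 5, and 3303 to 4360 CPM in MEFs, and its smooth muscle markers to 3.83 CPM against 0.611 to 2.54 CPM and 1247 to 1372 CPM in MEFs. Neuron and glia markers summed to 5.57 CPM in it against 1.2 to 3.39 CPM in the other 5, and enteroendocrine markers to 1.57 CPM against 0.196 to 1.10 CPM. Its intestinal epithelial markers were lower, at 522 CPM against 655 to 762 CPM. Immune and endothelial markers lay within the range of the other 5. Where the 31 counts come from was not tested.

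Genes of the gut epithelium known to respond to microbiota in vivo were read beside the 7. Of 15 fixed as such (Reg3g, Reg3b, Saa1, Saa2, Retnlb, Ang4, Fut2, Duox2, Duoxa2, Angptl4, Pigr, H2-Aa, H2-Ab1, Cd74 and Ciita), 9 were tested between GF and SPF organoids and 0 passed, with a median log2 fold change of -0.01. Reg3g, an antibacterial lectin, ran from 16.1 to 113 CPM in GF and 12.4 to 110 CPM in SPF, and Pigr, the transporter of IgA, from 1634 to 2985 CPM and 1882 to 2941 CPM, and both overlapped between the groups. By treatment label 3 of the 9 (Reg3g, Pigr and Cd74) were lower in organoid libraries labelled TNF (edgeR, adjusted p under 0.05) and 0 higher. Retnlb and H2-Aa had no count in any organoid library. Of 6 other genes known for variants among C57BL/6 substrains or stocks (Crb1, Nlrp12, Cyfip2, Gabra2, Mmrn1 and Dock2), 0 had enough counts to be tested. Crb1, Gabra2 and Mmrn1 had no count in any library. Over the 10 lists together 77 genes were tested between GF and SPF and 0 passed edgeR's adjusted p under 0.05, against 4 of all 12315 genes (0.0325%). Those 4 genes are members, so the 0 of the lists was fixed and nothing is read from it. Of all 12315 genes, 491 had an unadjusted p under 0.05 by edgeR, and DESeq2 called 21.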

How the data were processed

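Poly-A RNA of 15 cultures was sequenced as 27 libraries from a TruSeq kit, which the labels call stranded and the study's methods do not. The authors deposited raw counts per gene, and per the submitters' processing notes these came from bcl2fastq 2.19, Trimmomatic, STAR 2.5.4b, featureCounts and edgeR on GRCm38; the study's methods give Ensembl release 91. Whether strand was used in counting is not given in the sources used here. Of 22524 gene identifiers, 22214 matched a symbol; the other 310 stayed in library sizes and fits under their identifier.

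Counts were analysed here with edgeR 4.0.16 in R 4.3.3: TMM normalisation, genes reaching 10 counts in 50% or more of 1 group's libraries, the quasi-likelihood test and Benjamini-Hochberg adjustment over all genes fitted, with calls at an adjusted p under 0.05. DESeq2 1.42.0, no filter, all 27 libraries in 1 fit, each culture left out, treatment labels exchanged and the study's thresholds (an unadjusted p no higher than 0.05, with a change of 0.5 or more in log2 either way) were alternatives. Log2 CPM used a prior count of 2. Folds against groups with at most 3 counts in each library are lower bounds. The fitting code was tested on simulated counts. Fits of m-ICc12 or MEFs against organoids are not quoted, since organoid libraries chose the members.

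The members and lists were chosen with earlier results of these data known. Genes named beyond the members are those of 10 fixed lists and of 7 marker lists, neighbours within 500 kb, the most and least alike gene per member, and the genes with the widest gaps; single neighbours were picked for their values. One gene of a fixed list is not reported here. Positions are from GENCODE release M21, promoters from RefSeq (4 of the 7 members matched). Each file name gives the opposite treatment of its sample's label in all 12 cultures with both; groups follow the labels. Both libraries of an organoid culture come from 1 mouse by the number in their titles, and their deviations from the label means correlated at 0.0821 to 0.31; for m-ICc12 the values were -0.00667 to 0.0925. Where cultures of 1 group are littermates or repeats of a line, p-values measure the spread between these cultures.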

Additional observations from a re-analysis of the deposited data

Results flagged for a closer look

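Of 14 sets of 6 SPF libraries (7 genes under each label), 4 held a library whose gap to the next one took more than 0.625 of the whole range. About 1 in 20 sets of normally distributed values would, a rate that does not hold for sets made up mostly of 0 counts. Nnt was highest in Z908 labelled untreated at 121 CPM (3234 counts), with the next library at 94.2 CPM. mt-Nd3 was highest in Z911 labelled TNF at 11.4 CPM (126 counts), with the next at 4.39 CPM. For Amph the library was Z909 labelled untreated at 0.0685 CPM (2 counts) and for D16Ertd472e Z912 labelled untreated at 0.0328 CPM (1 count), where the other 5 libraries had no count, so both rest on counts under the floor of 3. With 5 libraries at 0, any count in the sixth gives a flag, so nothing is read from both.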

How the results depend on the processing

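The count of genes called between GF and SPF was 4, and 26 with all 27 libraries in 1 fit, 21 by DESeq2, 313 by the study's thresholds and 2 to 5 with 1 culture left out (2 without any 1 of the GF cultures). The count of genes whose GF and SPF ranges did not overlap was 10, and 266 over the libraries labelled untreated alone and 283 over those labelled TNF alone (both chosen after seeing the data; fewer libraries have to be apart), and 13 to 37 with 1 culture left out (17 without Z911, 19 without Z910, 36, 37 and 34 without Z917, Z918 and Z919). Between SE and SR 0 genes were called, and 2 with all 27 libraries, 8 by DESeq2, 5 without the filter, 1 with labels exchanged and 376 by the study's thresholds, which took in 2 members; with 1 culture left out the count was 0 to 35 (35 without Z909, 6 without Z912, 1 without Z908). For TNF in organoids the 168 calls became 397 with the culture as a replicate block and 352 by the study's thresholds, and members went from 0 to 1 (Amph) with all 27 libraries. For the interaction the 0 calls became 1 by DESeq2 and 273 by the study's thresholds, which took in 1 member. For m-ICc12 the 13 calls became 29 with all 27 libraries, 46 by DESeq2, 30 without the filter, 6 with the replicate block and 445 by the study's thresholds, and 15 to 93 with 1 culture left out, highest without M2. Wdfy1 between SE and SR reversed to a log2 fold change of -0.20 with labels exchanged. Mid1 between m-ICc12 and MEFs fell short of the threshold with all 27 libraries (adjusted p 0.15) and with labels exchanged (adjusted p 0.15) by edgeR, and without R3. In the same comparison the D16Ertd472e log2 fold change went from -10.57 to -3.75 with labels exchanged (edgeR, adjusted p 0.038). The block changed no member's call. Depth limits Amph and D16Ertd472e in SPF organoids and mt-Nd3 in GF organoids, where 0 counts allow up to 3.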
